A study of Mus musculus with 9 samples.

Results

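Fibronectin and 9 matricellular proteins were followed across the choroid (CH), the retinal pigment epithelium (RPE) and the photoreceptors (PR) of the mouse eye. The genes were chosen by name and are Fn1, Ctgf, Sparc, Spp1, Postn, Tnc, Thbs1, Thbs2, Thbs3 and Thbs4. All 10 are on the array, with 13 probes of the 39429 that are not controls, and they are 10 of the 31829 genes named there. The samples came from female C57BL/6 mice, of the J strain by the study's methods, for which the labels name no engineered allele and no treatment. The mice were 6 months old, give or take 2 weeks, by the labels, while the study's text gives another age. Each tissue was cut by laser from 3 eyes, and the RNA was amplified before labelling. It carried the dye Cy5 on 9 dual-colour Agilent whole genome arrays and was hybridised against one common reference of mouse choroid and RPE RNA in Cy3, with no dye swaps. Laser-cut layers of neighbouring tissues can hold cells of each other, and the choroid itself is a mixture of vessels, fibroblasts, pigment cells and immune cells. Nothing in the labels ties the samples to separate mice, so the p-values measure the spread between these samples. A member's value in bulk tissue does not tell fewer cells of a type apart from less RNA per cell.

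Fibronectin is a large secreted glycoprotein that assembles into fibrils and links cells, through integrins, to collagen. Matricellular proteins are secreted into the same matrix but serve as signals more than as scaffold: they bind growth factors, collagens and cell surface receptors and change how a cell attaches, migrates or divides. Under the RPE lies Bruch's membrane, a thin layered matrix that borders the choroidal capillaries, and matrix proteins of the RPE and the choroid both reach it.

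Each value below is log2(Cy5/Cy3), the tissue over the common reference, after background correction and within-array normalization. A gene was called different between tissues when its fold change (FC) was above 2.5 and its p-value, adjusted over all probes in the limma fit of the 9 arrays, was under 0.01. An FC of 2.5 is 1.32 on the log2 scale. A gene is represented by its brightest probe that was not saturated throughout a tissue, and further probes are given beside it. Positions are those the files give on the mouse assembly mm9, and the files give no exon or UTR for a probe. The median scanned Cy5 signal was 1111 to 1139 on the CH arrays, 991 to 1534 on the RPE arrays and 617 to 963 on the PR arrays. Between 63.1% and 91.8% of probes were well above background in Cy5, highest on RPE replicate 2. No spot of a member was saturated in Cy5 or carried an outlier mark, and saturation in Cy3 was not checked.

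Tnc gave too little signal for an order of the tissues. Of the other 9 genes, 7 had their highest mean in the choroid, and all 9 had their lowest in the photoreceptors. Thbs1 and Thbs4 had their highest mean in the RPE, by differences from the choroid that were not called. In the choroid against the photoreceptors, 9 genes were called higher in the choroid, beside 12.7% of all genes, and 0 were called higher in the photoreceptors, beside 6.01% of all genes. The gene not called was Tnc. In the RPE against the photoreceptors, 6 genes (Fn1, Ctgf, Sparc, Postn, Thbs1 and Thbs4) were called higher in the RPE, beside 10.9% of all genes, and 0 in the photoreceptors, beside 5.18%. Between the RPE and the choroid, 3 genes (Fn1, Ctgf and Thbs3) were called higher in the choroid, beside 1.74% of all genes, and 0 in the RPE, beside 0.179%. The median log2 difference of the members was 4.23 for the choroid minus the photoreceptors, 2.40 for the RPE minus the photoreceptors and -0.95 for the RPE minus the choroid, where the medians over all 31829 genes were -0.05, -0.004 and 0.03. The 3 comparisons share arrays, so they are not separate evidence.

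**Figure D1:**
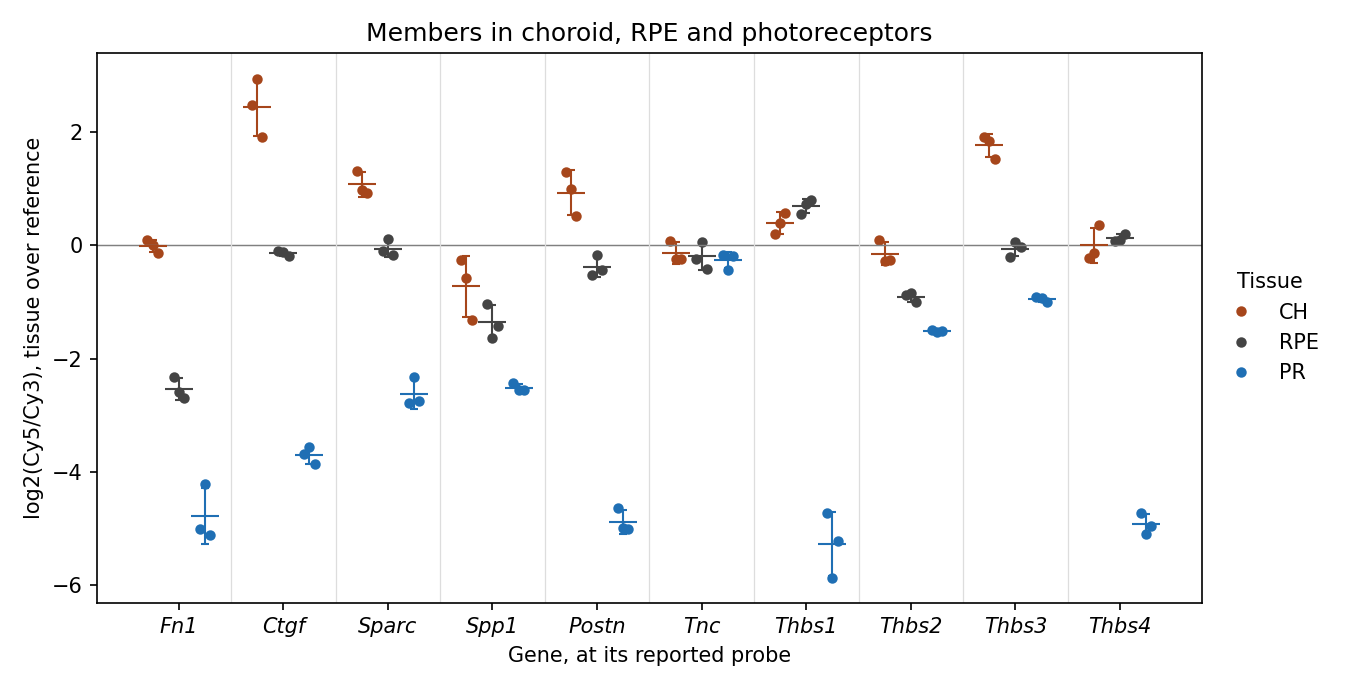
The log2(Cy5/Cy3) of each gene at its reported probe is plotted for the 3 CH, 3 RPE and 3 PR arrays, with the horizontal bar at the mean and the vertical bar at 1 SD. Ctgf spans the widest range, from -3.87 in the photoreceptors to 2.93 in the choroid, and the points of Tnc from all tissues lie together.

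Fn1 encodes fibronectin itself (NM_010233, probe on chromosome 1 from 71632116 to 71632175, minus strand). Its log2 ratio was 0.09, 0.01 and -0.13 on the CH arrays, -2.32, -2.59 and -2.70 on the RPE arrays and -5.01, -4.21 and -5.12 on the PR arrays. The tissues formed 3 separate groups with the RPE in the middle, and PR replicate 2 lay above the other PR arrays. The RPE held 17.4% of the choroidal level, a log2 difference of -2.52 ± 0.22 (SE) with an adjusted p of 1.35e-04 in limma. Against the photoreceptors, Fn1 was 4.74-fold higher in the RPE (log2 difference 2.24 ± 0.22 SE, adjusted p = 1.38e-05) and 27.3-fold higher in the choroid (adjusted p = 5.98e-08). The arrays lay on 3 slides, of which slide 1 held PR replicates 1 and 3 alone. Between RPE and choroid, arrays that shared a slide differed by -2.49 on slide 2 and by -2.60 on slide 3. Against PR replicate 2, on slide 3, Fn1 differed by 1.62 in the RPE and by 4.22 in the choroid, both smaller differences. With slide as a block it differed by 1.66 and 4.18. Because slide 1 held PR arrays alone, that fit compares with the photoreceptors through PR replicate 2 only and is no second check. Its Cy5 signal ranked at the 92.7 ± 0.6 percentile of all probes in the choroid, 75.3 ± 1.3 in the RPE and 59.2 ± 4.8 in the photoreceptors (SD, n = 3).

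Ctgf, connective tissue growth factor, is a secreted CCN protein that is a classic target of TGF-beta and of the YAP and TEAD factors (NM_010217, chromosome 10, 24318281 to 24318340). The CH arrays gave 2.48, 2.93 and 1.92, the RPE arrays -0.11, -0.11 and -0.19 and the PR arrays -3.69, -3.56 and -3.87. The RPE arrays lay within 0.1 of each other while the choroidal arrays spread over a full log2 unit, and the tissues did not overlap. Ctgf was 5.99-fold higher in choroid than in RPE (log2 difference, RPE minus CH, -2.58 ± 0.21 SE, adjusted p = 1.21e-04), 11.9-fold higher in RPE than in photoreceptors (3.57 ± 0.21, adjusted p = 5.03e-07) and 71.0-fold higher in choroid than in photoreceptors (6.15 ± 0.21, adjusted p = 1.23e-08). Its Cy5 percentile was 99.3 in the choroid, 96.0 in the RPE and 77.8 in the photoreceptors. Within slides, the difference of the RPE from the choroid was -2.35 on slide 2 and -3.05 on slide 3.

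Part of the difference in Ctgf lay in the reference channel. The same reference RNA was on every array, yet its log2 Cy3 signal at the Ctgf spot, relative to the median of the array, had a mean of 5.09 on the CH arrays, 6.05 on the RPE arrays and 6.50 on the PR arrays. From the Cy5 channel alone, the RPE differed from the choroid by -1.75 (adjusted p = 0.0031) and the choroid from the photoreceptors by 5.02. The calls were the same in all 3 comparisons, with a smaller FC. What moved the Cy3 signal with the tissue was not tested.

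Sparc (osteonectin) binds collagen and calcium and governs how fibrils assemble (NM_009242, chromosome 11, 55208939 to 55208998, minus strand). It gave 1.32, 0.97 and 0.93 on the CH arrays, -0.11, 0.11 and -0.17 on the RPE arrays and -2.78, -2.32 and -2.76 on the PR arrays. Each tissue stood apart from the others. Sparc was 5.91-fold higher in the RPE (log2 difference 2.56 ± 0.16 SE, adjusted p = 5.67e-07) and 12.9-fold higher in the choroid (3.69 ± 0.16, adjusted p = 3.83e-08) than in the photoreceptors. Between the RPE and the choroid the log2 difference was -1.13 ± 0.16 (adjusted p = 0.00109), an FC of 2.19 that lay under the limit. Its second probe (55208003 to 55208061) gave differences of -0.97, 3.15 and 4.12 for the RPE minus CH, the RPE minus PR and the CH minus PR, with the same calls.

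Sparc was also the member whose reference signal moved most. At the reported probe, its log2 Cy3 signal over the array median was 6.37, 6.62 and 6.39 on the CH arrays, 7.27, 7.13 and 7.27 on the RPE arrays and 8.29, 8.27 and 8.14 on the PR arrays, a step up from tissue to tissue with no overlap. The second probe moved less, with means of 6.20, 6.54 and 7.04 and a range of 1.14, and its tissues overlapped. In Cy5 alone, at the reported probe, the difference of the RPE from the choroid was -0.41 (adjusted p = 0.187), and those of the RPE and the choroid from the photoreceptors were 1.86 and 2.27, both still called. In the photoreceptors the Cy5 signal ranked at the 94.7 ± 0.5 percentile at the reported probe and at 80.6 ± 3.3 at the second (SD, n = 3). Among the other members, the Cy3 range over the 9 arrays was 1.11 for Thbs1, 0.90 for Thbs4 and at most 0.81 elsewhere, against 1.92 for Sparc and 1.71 for Ctgf.

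**Figure D2:**
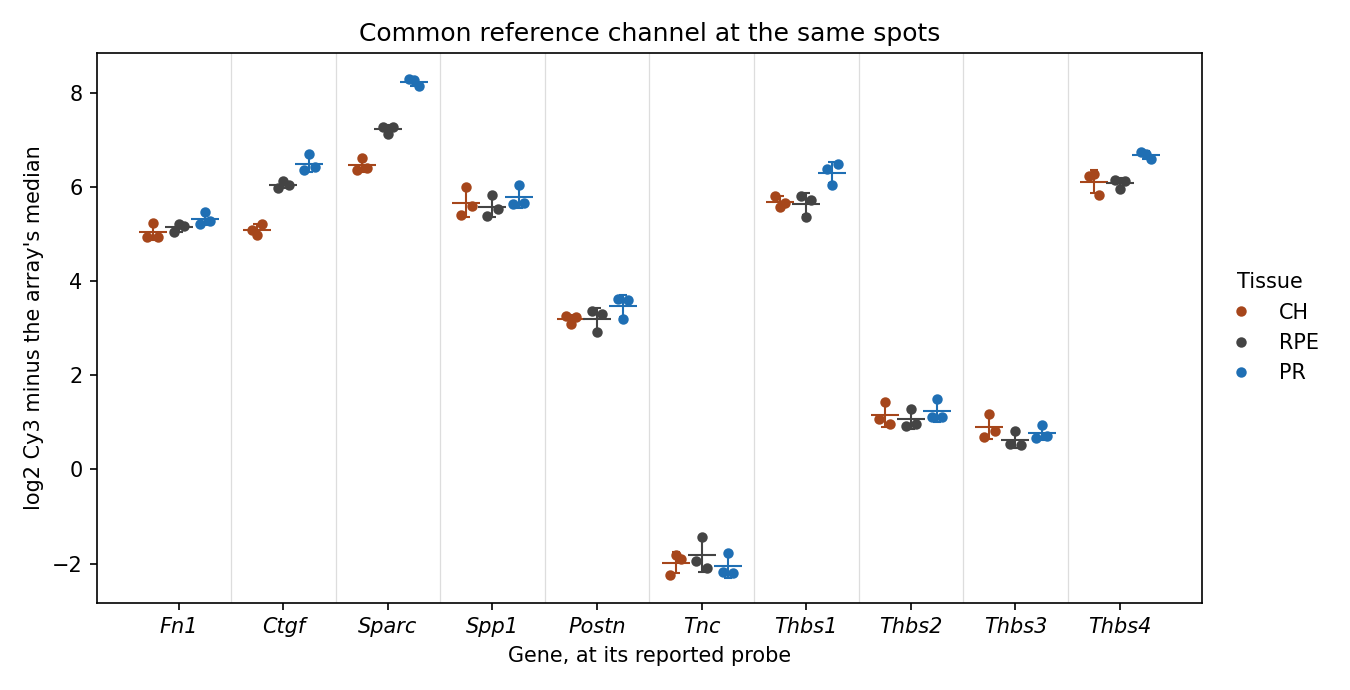
The log2 Cy3 signal of the common reference, relative to the array's median, is plotted at the same spots and on the same 9 arrays, with the mean and 1 SD. Sparc and Ctgf are lowest on the CH arrays and highest on the PR arrays, and the points of Fn1, Spp1, Thbs2 and Thbs3 from different tissues lie close together.

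Spp1 encodes osteopontin, an acidic phosphoprotein that binds integrins and CD44 and is made by macrophages among other cells. Its probe (NM_009263, chromosome 5, 104868502 to 104868561) is shown because the replicate arrays of the choroid and of the RPE spread widely over this gene:
Spp1 probe: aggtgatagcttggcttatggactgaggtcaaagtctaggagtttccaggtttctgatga

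Spp1 gave -0.27, -0.58 and -1.31 on the CH arrays, -1.03, -1.64 and -1.42 on the RPE arrays and -2.43, -2.55 and -2.55 on the PR arrays. CH replicate 3 fell among the RPE arrays, and the PR arrays lay below all others. The choroid was 3.46-fold higher than the photoreceptors (log2 difference 1.79 ± 0.25 SE, adjusted p = 1.41e-04). With slide as a block this difference was 1.76 and lost its call, in a fit that compares with the photoreceptors through PR replicate 2 only. The RPE differed from the choroid by -0.64 ± 0.25 (adjusted p = 0.0954) and from the photoreceptors by 1.15 ± 0.25 (adjusted p = 0.00294), neither of which was called. All 9 arrays had the probe well above background, at a mean Cy5 percentile between 81.6 in the photoreceptors and 92.3 in the choroid.

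Postn encodes periostin, a fasciclin-domain protein of connective tissue that promotes collagen crosslinking (NM_015784, chromosome 3, 54194840 to 54194899). Its log2 ratio was 1.29, 0.99 and 0.51 in the choroid, -0.52, -0.18 and -0.43 in the RPE and -4.64, -4.99 and -5.01 in the photoreceptors. The PR arrays lay more than 4 log2 units below every other array, and the choroid and the RPE did not overlap. Postn was 22.7-fold higher in the RPE (4.50 ± 0.19 SE, adjusted p = 6.25e-08) and 56.3-fold higher in the choroid (5.81 ± 0.19, adjusted p = 9.84e-09) than in the photoreceptors. Its difference between the RPE and the choroid, -1.31 ± 0.19 (adjusted p = 0.0015), was an FC of 2.48 and missed the FC limit by little. Without CH replicate 3 it was -1.52 and without RPE replicate 2 it was -1.41, and both passed. In the photoreceptors Postn ranked at the 37.4 ± 5.9 percentile (SD, n = 3), against 76.6 in the RPE and 86.7 in the choroid.

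Tnc encodes tenascin-C, a large hexameric protein that appears in developing, healing and tumour tissue and opposes attachment to fibronectin. Its 2 probes (NM_011607, chromosome 4, minus strand), at 63643728 to 63643787 and, across a gap in the genome, at 63674248 to 63675011, are shown because neither gave a signal from which a fold could be taken:
Tnc reported probe: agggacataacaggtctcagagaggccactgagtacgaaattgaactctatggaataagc
Tnc second probe: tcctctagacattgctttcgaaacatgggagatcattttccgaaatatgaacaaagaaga

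The reported Tnc probe was well above background on RPE replicate 2, the array with the largest share of probes above background, and on no other array. The second probe was not well above background on any of the 9 arrays. The log2 ratios of the reported probe lay between -0.43 and 0.08 over all arrays, with the tissues interleaved, and the tissue means were -0.14 ± 0.19 in the choroid, -0.19 ± 0.24 in the RPE and -0.26 ± 0.15 in the photoreceptors (SD, n = 3). No difference was called, with adjusted p between 0.523 and 0.831 in limma. In each tissue these probes give an upper bound for Tnc and no order of the tissues.

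The thrombospondins are secreted multimers that bind calcium, collagen and cell surface receptors. Thbs1 and Thbs2 form trimers, have the type 1 repeats that bind CD36 and are known to restrain new vessels. Thbs3 and Thbs4 form pentamers and lack those repeats. On these arrays the 4 genes did not share one pattern.

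Thbs1 (NM_011580, chromosome 2, 117952585 to 117952644) gave 0.20, 0.40 and 0.58 in the choroid, 0.56, 0.72 and 0.79 in the RPE and -4.73, -5.87 and -5.23 in the photoreceptors. The choroid and RPE arrays overlapped and lay far above the PR arrays. Thbs1 was 62.4-fold higher in the RPE (log2 difference 5.96 ± 0.24 SE, adjusted p = 4.32e-08) and 50.8-fold higher in the choroid (5.67 ± 0.24, adjusted p = 3.93e-08) than in the photoreceptors. The RPE differed from the choroid by 0.30 (95% confidence interval -0.24 to 0.84, adjusted p = 0.442). Its Cy5 percentile was 97.1 in the RPE, 96.6 in the choroid and 63.4 ± 6.8 in the photoreceptors (SD, n = 3). Within slide 3, which held only replicate 2 of each tissue, its differences from the photoreceptors were larger, at 6.59 in the RPE and 6.26 in the choroid. In Cy5 alone they were smaller, at 5.43 and 5.22. Its mean log2 Cy3 signal over the array median was 5.69 on the CH arrays, 5.63 on the RPE arrays and 6.30 on the PR arrays. Of the 10 genes, Thbs1 had the largest difference between the RPE and the photoreceptors.

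Thbs4 (NM_011582, chromosome 13, 93521565 to 93521624, minus strand) behaved much alike, with -0.22, -0.14 and 0.36 in the choroid, 0.08, 0.10 and 0.21 in the RPE and -4.73, -5.10 and -4.95 in the photoreceptors. The RPE arrays fell within the range of the CH arrays. Thbs4 was 33.3-fold higher in the RPE (5.06 ± 0.16 SE, adjusted p = 1.2e-08) and 30.4-fold higher in the choroid (4.93 ± 0.16, adjusted p = 7.88e-09) than in the photoreceptors, and the RPE differed from the choroid by 0.13 (95% confidence interval -0.22 to 0.48, adjusted p = 0.629). With median centring in place of loess this last difference turned to -0.18. Thbs4 ranked at the 96.9 percentile of Cy5 in the RPE, 96.7 in the choroid and 69.4 in the photoreceptors.

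Thbs3 (NM_013691, chromosome 3, 89030682 to 89030741) was, with Fn1 and Ctgf, 1 of the 3 genes called between the RPE and the choroid. The CH arrays gave 1.92, 1.85 and 1.53, the RPE arrays -0.20, 0.06 and -0.03 and the PR arrays -0.91, -0.94 and -1.01. The choroid stood well above both other tissues, and the RPE lay closer to the photoreceptors than to the choroid. It was 3.53-fold higher in choroid than in RPE (RPE minus CH -1.82 ± 0.12 SE, adjusted p = 5.9e-05) and 6.56-fold higher in choroid than in photoreceptors (2.71 ± 0.12, adjusted p = 5.34e-08). Its difference between the RPE and the photoreceptors, 0.89 ± 0.12 (adjusted p = 1.54e-04), lay under the FC limit. Its second probe overlaps the first by most of its length (89030667 to 89030726) and gave -1.90, 0.89 and 2.79, so the pair is not an independent check. Within slides, the difference between the RPE and the choroid was -1.84 on slide 2 and -1.79 on slide 3.

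Thbs2 (NM_011581, chromosome 17, minus strand) had the smallest difference between choroid and photoreceptors of the 4. Its probe runs across a gap in the genome, from 14804526 to 14805789, and is shown because the call of the gene depends on the signal scale:
Thbs2 probe: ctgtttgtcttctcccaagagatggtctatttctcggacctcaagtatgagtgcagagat

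Thbs2 gave 0.09, -0.27 and -0.26 in the choroid, -0.87, -0.84 and -1.01 in the RPE and -1.49, -1.53 and -1.51 in the photoreceptors. The PR arrays agreed within 0.04, and the order CH, RPE, PR held with no overlap. The choroid was 2.57-fold higher than the photoreceptors (log2 difference 1.36 ± 0.11 SE, adjusted p = 3.92e-06), just past the FC limit. The call was lost without CH replicate 1 (1.24) and on the Cy5 channel alone (1.03). The RPE differed by -0.76 ± 0.11 (adjusted p = 0.00156) from the choroid and by 0.60 ± 0.11 (adjusted p = 0.00135) from the photoreceptors, neither of which was called. Its Cy5 percentiles were 60.0, 53.3 and 50.4 in the choroid, the RPE and the photoreceptors.

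**Figure D3:**
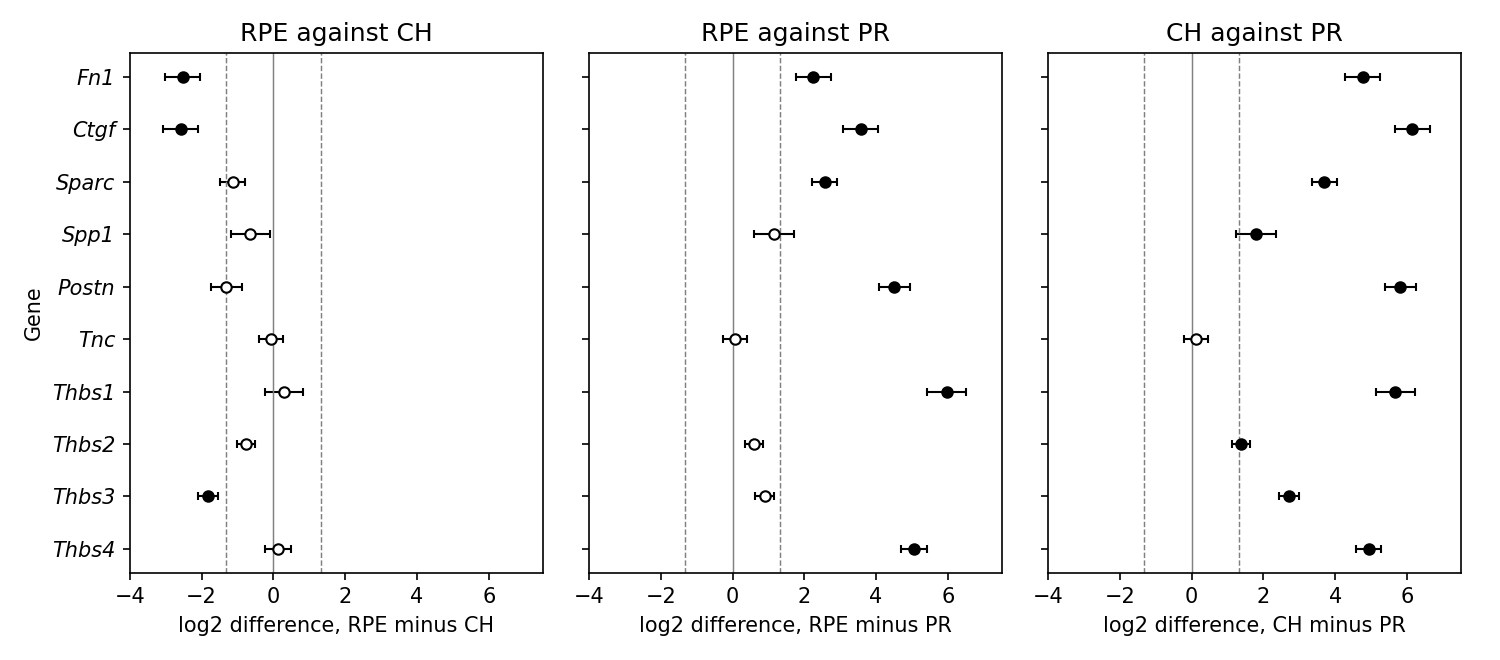
The log2 differences of the 10 genes in the 3 comparisons are plotted with their 95% confidence intervals, filled where the gene was called and open where it was not, and the dashed lines stand at an FC of 2.5. In the RPE against the choroid the called genes are Fn1, Ctgf and Thbs3, all below 0, and against the photoreceptors every called gene is above 0.

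The gene starts of Thbs4 and Sparc are shown because they held short motifs of known regulators, and both genes were called higher in both other tissues than in the photoreceptors. Postn was called higher in both tissues too and held none of these motifs. RefSeq (GRCm38.p6) gave a promoter window, from 250 bases before to 50 after the start, for 7 of the 10 genes (Postn, Thbs3, Tnc, Spp1, Sparc, Thbs4 and Thbs2), with 10 windows in all. Each window was searched for the TEAD motif GGAATG or its complement CATTCC, the SMAD motif CAGACA or TGTCTG, the AP-1 motif TGANTCA and the CArG box, on both strands. The bases before the start are shown 5′ to 3′ with the motifs in capitals, at chr13:92794819-92795068 for Thbs4 and chr11:55420081-55420330 for Sparc, both on the minus strand:
Thbs4 upstream: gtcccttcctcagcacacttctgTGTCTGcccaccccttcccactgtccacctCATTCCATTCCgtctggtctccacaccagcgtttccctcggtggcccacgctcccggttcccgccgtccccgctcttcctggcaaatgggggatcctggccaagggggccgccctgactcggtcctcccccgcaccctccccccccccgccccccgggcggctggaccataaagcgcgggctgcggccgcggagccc
Sparc upstream: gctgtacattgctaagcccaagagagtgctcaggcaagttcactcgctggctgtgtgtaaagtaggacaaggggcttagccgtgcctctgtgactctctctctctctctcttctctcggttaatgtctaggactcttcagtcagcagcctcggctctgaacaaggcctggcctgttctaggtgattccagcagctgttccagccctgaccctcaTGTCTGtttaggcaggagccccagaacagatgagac

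In Thbs4 a pair of overlapping TEAD motifs lay downstream of a SMAD motif, and it was the gene among these 7 with a TEAD motif, where 14.7% of 32851 mouse promoter windows hold one. A SMAD motif was in a window of Sparc, Thbs2, Tnc, Spp1 and Thbs4, where 21.0% of all windows hold one. These shares are per window and not per gene. Postn, Tnc and Spp1 have more than 1 window each, those of Tnc overlap, and not every Spp1 window held the motif. Postn and Thbs3 held none of the motifs searched. The AP-1 motif (7.81% of all windows) and the CArG box (1.63%) were in no window of the 7 genes. Tnc, which had no signal to compare, held the SMAD motif too. These matches describe letters in a short window and are not binding sites.

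Other genes with a profile like that of a member were ranked by Pearson's r of the log2 ratio over the 9 arrays, among 26557 probes well above background on all arrays of a tissue. The points share the common reference and fall into 3 tissues, so many genes correlate highly, and r is given as a description. Postn was closest to Tnxb (r = 0.9997), a tenascin of connective tissue, followed by Chst14 and Entpd1. Thbs1 was closest to Fbn1 (r = 0.998), which encodes fibrillin-1, with Slc12a2 and Arhgef5 at the same rounded r. Fn1 was closest to Col16a1 (r = 0.998), a fibril-associated collagen, followed by a transcript without a gene symbol and Ccl3 (both r = 0.997). Ctgf was closest to Arhgap9, Il6ra and Fcer1g, which are known from blood cells, and Spp1 to Ly6c1, C1qa and Pde7b, of which C1qa encodes a complement chain made by macrophages. The nearest to Sparc were Pard6g, Foxd2 and Adam15, to Thbs2 they were Tmem119, Rps20 and Svep1, to Thbs3 Mamstr, Slit3 and Tspan11, and to Thbs4 Sdpr, Spry1 and Idua. Among the members, the pair with the highest r was Thbs1 and Thbs4 (r = 0.997).

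Genes listed as receptors for these proteins, with the cadherin gene Cdh11 counted among them, were higher in the RPE and the choroid than in the photoreceptors in most cases. Of 19 receptors, 14 were called higher in the RPE than in the photoreceptors, beside 10.9% of all genes, and 0 lower, beside 5.18%. In the choroid, 15 were called higher than in the photoreceptors, beside 12.7% of all genes, and 0 lower, beside 6.01%. The median log2 difference was 2.40 and 2.29. Among those with a measured signal in all 3 tissues, the cadherin gene Cdh11 exceeded its photoreceptor level in the choroid by 5.58 log2 units (adjusted p = 3.65e-09), the collagen and thrombospondin receptor gene Cd36 by 4.74 (adjusted p = 2.03e-08) and Itga4, an integrin subunit for fibronectin, by 4.73 (adjusted p = 3.84e-09). Between the RPE and the choroid, 2 receptors were called higher in the RPE, beside 0.179% of all genes, and 3 in the choroid, beside 1.74%. Itgav, a subunit of the integrins that bind fibronectin, osteopontin and periostin, was higher in the RPE by 1.55 (adjusted p = 2.57e-04), and so was Itgb8 by 1.44 (adjusted p = 7.97e-04), a beta partner of Itgav. Cd36 differed by -1.92 (adjusted p = 1.87e-04), Itga8 by -1.91 (adjusted p = 1.66e-04) and Cdh11 by -1.66 (adjusted p = 1.53e-04), each higher in the choroid.

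Relatives of the members varied more. Of 22 family relatives, 12 were called higher in the choroid than in the photoreceptors, beside 12.7% of all genes, and 2 lower, beside 6.01%. In the RPE, 8 were called higher than in the photoreceptors, beside 10.9% of all genes, and 2 lower, beside 5.18%. Against the choroid, 1 was called higher in the RPE, beside 0.179% of all genes, and 5 lower, beside 1.74%. Comp, the fifth thrombospondin, differed by -2.81 between the RPE and the choroid (adjusted p = 5.08e-05), the same direction as Thbs3. Sparcl1 and Smoc2, relatives of Sparc, differed by -1.75 (adjusted p = 0.0022) and -2.10 (adjusted p = 5.9e-05). Spock1, another relative of Sparc, was the one called higher in the RPE, by 1.42 (adjusted p = 0.00208). Of the CCN proteins, to which Ctgf belongs, Wisp2 (-2.91, adjusted p = 0.00109, well above background on 1 of 3 RPE arrays) and Nov (-1.36, adjusted p = 0.00127) were called higher in the choroid than in the RPE, as Ctgf was. For Wisp2 not every CH array gave a value, since outlier-marked spots were left out. Nov was named after its values were seen. Cyr61, another CCN protein, was 3.92 higher in the RPE than in the photoreceptors (adjusted p = 2.78e-07) and differed from the choroid by 0.04 (adjusted p = 0.918). Wisp1, also a CCN protein, was called lower than in the photoreceptors in both other tissues. Its differences were -2.39 for the RPE minus PR (adjusted p = 6.34e-07) and -1.64 for the CH minus PR (adjusted p = 7.08e-06). Wisp1 was named after its values were seen. Vtn, which encodes the adhesion protein vitronectin, also ran opposite to the members and was 3.46 lower in the RPE than in the photoreceptors on the log2 scale (RPE minus PR -3.46, adjusted p = 3.08e-07). The medians over the list were -0.37 for the RPE minus CH, 0.54 for the RPE minus PR and 1.74 for the CH minus PR.

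Of 19 genes that regulate or process the members, 14 were called higher in the choroid than in the photoreceptors, beside 12.7% of all genes. In the same comparison 1 was called lower (Bmp1, -1.46, named after its value was seen), beside 6.01%. In the RPE, 10 were called higher than in the photoreceptors, beside 10.9% of all genes, and 0 lower, beside 5.18%. Against the choroid, 0 were called higher in the RPE, beside 0.179% of all genes, and 2 lower, beside 1.74%. The 2 were Tgfb3, a TGF-beta ligand, at -2.01 (adjusted p = 1.8e-04) and Lox, which crosslinks collagen and elastin, at -1.71 (adjusted p = 2.17e-04). Yap1, a cofactor of TEAD, was 4.15 higher in the RPE (adjusted p = 4.73e-09) and 4.04 higher in the choroid (adjusted p = 2.79e-09) than in the photoreceptors, and Tgfbr3 5.01 and 4.26 higher. For Yap1 the RPE and the choroid differed by 0.11 (adjusted p = 0.489). The medians of the list were -0.53, 1.35 and 2.08 in the order used above.

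**Figure D4:**
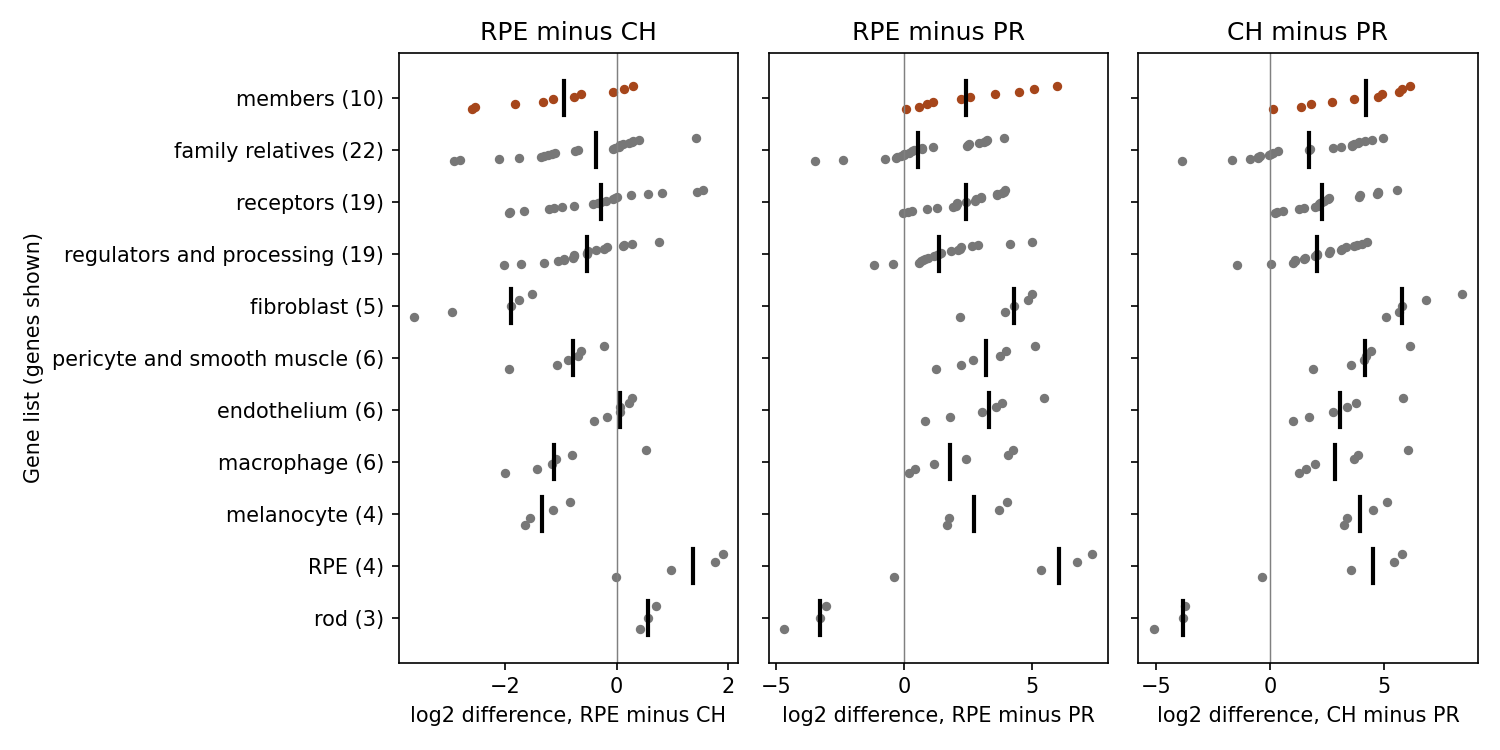
Each point is the log2 difference of 1 gene in the comparison named on the axis, and the black bar is the median of the list, with the members in brown and marker genes saturated on all arrays of a tissue left out. The fibroblast markers lie furthest below 0 for the RPE minus CH with a median of -1.88, and the rod markers lie below 0 in both comparisons with the photoreceptors.

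Marker genes of other cell types were compared between the tissues in the same fit. A marker saturated on all 3 arrays of a tissue has a capped value there, so such genes were left out of the medians, sums and counts that follow: 1 fibroblast marker (Dcn), 2 of melanocytes (Tyrp1 and Dct), 1 of Müller glia (Apoe), 3 of the RPE (Rpe65, Rdh5 and Ttr) and 3 of rods (Gnat1, Sag and Prph2). The 5 other fibroblast markers (Col1a1, Col1a2, Col3a1, Lum and Pdgfra) were all called higher in the choroid than in the RPE, with a median of -1.88 for the RPE minus CH, and higher in both than in the photoreceptors. Their summed normalized Cy5 signal was 561014 to 686991 on the CH arrays, 162763 to 209980 on the RPE arrays and 18361 to 22871 on the PR arrays. Pdgfra was well above background on 2 PR arrays and the others on all of them. In the choroid against the RPE, 1 of 6 markers of pericytes and smooth muscle, 2 of 6 of macrophages, 2 of 4 of melanocytes, 1 of 5 of Müller glia, 1 of 6 of cartilage and sclera and 0 of 6 each of endothelium and of skeletal muscle were called higher in the choroid, and 0 of any of these lists higher in the RPE. Their medians for the RPE minus CH were -0.78, -1.12, -1.34, 0.16, 0.08, 0.06 and -0.20. Over all genes, 1.74% were called higher in the choroid than in the RPE and 0.179% higher in the RPE. The part of any of these cell types in the members' differences was not tested.

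The tissue labels were checked against their markers. The 3 rod markers used that were not capped (Pde6b, Cnga1 and Nrl) were called higher in the photoreceptors than in either other tissue, with medians of -3.27 for the RPE minus PR and -3.83 for the CH minus PR. Nrl was still saturated on 2 PR arrays and Cnga1 on 1. Of the 4 RPE markers that were not capped (Rlbp1, Lrat, Best1 and Kcnj13), 2 were called higher in the RPE than in the choroid, with a median of 1.37 over the 4. Lrat was saturated on 1 RPE array and Kcnj13 on 2. All but Best1 were well above background on every array. The Best1 probe was so on 0 CH arrays, 1 RPE array and 1 PR array, too little signal for an order of the tissues. It is still in the count, the median and the sum. The summed signal of these RPE markers was 569815 to 715144 on the CH arrays, 853008 to 1000820 on the RPE arrays and 39763 to 61892 on the PR arrays, and that of the rod markers was 156441 to 235551, 219615 to 312269 and 783410 to 1127380. Against the photoreceptors, 5 of 6 endothelial markers, 5 of 6 pericyte and smooth muscle markers, 3 of 6 macrophage markers, 4 of 4 melanocyte markers, 3 of 5 Müller glia markers, 2 of 6 cartilage and sclera markers and 2 of 6 muscle markers were called higher in the RPE. In the choroid against the photoreceptors these counts were 5, 6, 5, 4, 3, 3 and 2. Over all genes, 10.9% were called higher in the RPE than in the photoreceptors and 12.7% higher in the choroid. The shares called higher in the photoreceptors were 5.18% against the RPE and 6.01% against the choroid.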

How the data were processed

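The authors deposited Agilent Feature Extraction 9.5.3.1 output for 9 dual-colour arrays, in which mean signal and median local background are intensities as scanned. Its deposited processed signals are intensities corrected for background and dye, and its log10 ratio is processed Cy5 over Cy3. A further table deposited by the authors has log2 values that track Cy5 (r of 0.985 to 0.9991 per array, column medians 9.38 to 9.55); how they were normalized is not given in the sources used here. The submitters' processing notes also name R 2.14.0 and limma.

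From the scanned intensities, the local background was removed by normexp at an offset of 50, and loess was applied within each array to log2(Cy5/Cy3). Control spots and outlier-marked spots were left out, and spots of a probe were averaged. Means per tissue were fitted over 9 arrays with limma 3.58.1 in R 4.3.3, with Benjamini-Hochberg adjustment over 39429 probes. Shares of genes called use 1 reported probe for each of 31829 genes. Percentiles rank log2 Cy5 after loess and Aquantile. The fit was also run on simulated data with independent noise and known shifts added to the RPE arrays, without slide or dye effects. That run checks the code and not how well the fit describes these arrays. Figures were drawn with matplotlib 3.10.9 under Python 3.11.15 from the result tables. The number of arrays, 3 per tissue, limits precision.

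The members and all gene lists (3 of related genes, 10 of markers) were chosen with earlier results of these data known. All 10 members are named, and other genes are taken from the 5 called genes with the largest differences in each list and comparison, or from the 3 with the highest correlation with a called member, apart from those said to be named after their values were seen. Each comparison was repeated under 18 alternatives and with each of the 9 arrays left out. One marker gene is not reported here and was left out of its list. The study's human arrays were not analysed here.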

Additional observations from a re-analysis of the deposited data

How the results depend on the processing

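The number of members called higher in the choroid than in the RPE, 3 in the fit reported, was 5 with median centring in place of loess (Postn at -1.67 and Sparc at -1.45 passed as well), where 3.29% of all genes were called, and 5 with an FC limit of 2, where 3.61% were, against 1.74% in the fit reported. With each array left out in turn it lay between 3 and 4, the number higher in the choroid than in the photoreceptors between 8 and 9 and the number higher in the RPE than in the photoreceptors at 6 throughout. No member was called higher in the RPE than in the choroid, or in the photoreceptors than in either tissue, in any of these fits. Signs turned for differences that were not called: Tnc between the RPE and the choroid became 0.30 with the software's own log ratio, 0.057 with median centring and 0.31 within slide 3, and lay between -0.19 and 0.051 with single arrays left out (above 0 without CH replicate 1 or RPE replicate 3). Tnc between the RPE and the photoreceptors became -0.052 with array weights and lay between -0.063 and 0.18 with single arrays left out (below 0 without RPE replicate 2 or PR replicate 2). Thbs4 between the RPE and the choroid became -0.18 with median centring. Thbs2 between the choroid and the photoreceptors lost its call with the software's log ratio (1.24), in Cy5 alone (1.03), in the series table (1.18) and without CH replicate 1 (1.24). Spp1 lost its call with slide as a block, a fit in which the photoreceptors rest on PR replicate 2 only. Postn between the RPE and the choroid passed with array weights (-1.45), and Spp1 between the RPE and the photoreceptors with an FC limit of 2.

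Samples share replicate numbers across tissues. Deviations of same-numbered samples had r of -0.08 to 0.29 over 9 pairs (median 0.06), against a median of -0.07 over 18 pairs with different numbers. Pairs on the same slide had a median of 0.16 and other pairs -0.07, and replicate 2 of every tissue lay on slide 3. Number and slide thus overlap and r cannot settle whether the numbers pair samples, so the fit reported did not pair them. With replicate number as a block, 3 members were called higher in the choroid than in the RPE, 6 higher in the RPE and 9 higher in the choroid than in the photoreceptors, the same counts as without it. The series table lists no value for the reported probe of Sparc on any CH array, so it gave no difference there, and leaving out dim probes removed Tnc. Comparisons with the choroid or RPE inside slide 1 could not be made because it held PR arrays alone. The causes of these changes were not tested.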
